A study of Homo sapiens with 14 samples.

Results

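Solute carriers (SLC) are membrane proteins that move small molecules, amino acids among them, across the membranes of cells or organelles. The members are the 9 genes named in the array annotation whose symbols place them in, or beside, 9 families of these carriers. They were chosen by symbol alone, as every gene of the array annotation whose name starts with SLC1A, SLC3A, SLC6A, SLC7A, SLC16A, SLC25A, SLC36A, SLC38A or SLC43A followed by a number, and the rule uses no measured value, although it was set with earlier results of these data known. The annotation names exactly 1 gene for 16098 of the 53617 rows of the table, with 14884 distinct symbols, and 9 of these symbols matched. Of the 9, 3 are protein coding (SLC38A12, SLC25A15 and SLC25A2), 5 are antisense long non-coding RNAs (SLC25A25-AS1, SLC7A11-AS1, SLC25A5-AS1, SLC25A21-AS1 and SLC25A48-AS1) and 1 is a transcribed pseudogene (SLC25A51P4). The RefSeq gene table holds 199 symbols of this pattern, 123 of them protein coding. No named probe set covers a member of SLC1A, SLC3A, SLC6A, SLC16A, SLC36A or SLC43A, and SLC7A is covered by an antisense RNA alone. The name "amino acid transporter genes" is therefore not borne out by these 9, and they are called by their symbols below. Whether any of the 37519 rows without exactly 1 named gene reads another gene of these families is not known here. In what follows, a gene is said to be measured if it has a named probe set.

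RNA was measured on 14 Affymetrix Human Gene 2.0 ST arrays, 2 for each of 7 groups of LNCaP cells, a line established from a human prostate cancer. The groups were untransfected cells, cells given 20 nM of a pooled non-targeting siRNA (control siRNA) for 24, 72 or 144 h, and cells given 20 nM of a pooled siRNA against CTCF for the same times. Cells of the 144 h groups were split and reverse transfected again after 72 h, so that both siRNA groups at 144 h carry a second transfection that the other groups lack. No time is given for the untransfected cells, so that siRNA, transfection and time in culture cannot be told apart in any comparison with them.

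Amino acid carriers of the plasma membrane exchange or co-transport amino acids with other amino acids, sodium or protons. Carriers of the SLC25 family sit in the inner membrane of mitochondria and exchange metabolites such as ornithine, nucleotides and dicarboxylates with the cytosol. Several plasma membrane carriers and amino acid synthesis enzymes are induced through ATF4, a transcription factor that is translated more when amino acids run short. An antisense RNA is transcribed from the strand opposite a neighbouring gene, and its own level need not follow that of the gene it is named after.

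The stretches of genome just upstream of the starts of 3 members are shown first, because SLC25A25-AS1 and SLC25A15 are the only members that passed a test and SLC38A12 had the highest level. Each is the 250 bases before the annotated RefSeq start on assembly GRCh38.p14, and capitals mark each copy of CATCCCT.
SLC25A25-AS1, chr9:128118735-128118984, minus strand: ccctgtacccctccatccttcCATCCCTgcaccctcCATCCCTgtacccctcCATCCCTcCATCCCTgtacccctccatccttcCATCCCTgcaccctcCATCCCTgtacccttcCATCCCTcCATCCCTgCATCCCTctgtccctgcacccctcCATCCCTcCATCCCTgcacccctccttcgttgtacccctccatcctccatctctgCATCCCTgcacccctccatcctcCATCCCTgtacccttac
SLC25A15, chr13:40789361-40789610, plus strand: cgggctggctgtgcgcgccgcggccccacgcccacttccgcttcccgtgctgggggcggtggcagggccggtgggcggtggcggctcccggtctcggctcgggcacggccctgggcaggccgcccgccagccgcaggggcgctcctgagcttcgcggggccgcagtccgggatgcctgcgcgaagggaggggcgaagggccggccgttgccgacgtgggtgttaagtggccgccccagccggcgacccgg
SLC38A12, chr17:74776249-74776498, plus strand: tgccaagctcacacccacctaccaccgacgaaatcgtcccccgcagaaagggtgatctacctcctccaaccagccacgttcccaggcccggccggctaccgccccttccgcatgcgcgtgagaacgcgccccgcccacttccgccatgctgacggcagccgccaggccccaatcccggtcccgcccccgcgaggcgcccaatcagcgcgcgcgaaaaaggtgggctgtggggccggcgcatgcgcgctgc
The SLC25A25-AS1 window is a run of near repeats and held 13 copies of CATCCCT on the strand shown. These letters were picked after the sequence had been read. On either strand, CATCCCT occurred in 4.13% of the 35116 upstream windows of RefSeq, and 1 window, this one, held as many copies. The SLC25A15 window was 79.6% G and C, against a median of 58% over all windows, and the SLC38A12 window was 70.8% G and C. TGATGNAA, the letters to which dimers of ATF4 and C/EBP factors bind, was found on neither strand in any of the 8 windows listed for 6 of the members, and in 3.14% of all windows. CCCTC, the letters that gave CTCF its name and which each CATCCCT followed by C also holds, occurred on either strand in 6 of the 8 windows and in 66.6% of all windows. These matches describe the letters in the windows alone.

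CTCF itself was checked in every group. Its value ran from 8.78 to 9.19 on the 8 arrays without the CTCF siRNA and from 6.73 to 7.46 on the 6 arrays with it. Relative to control siRNA the CTCF signal was 76.1% lower at 24 h, 69.7% lower at 72 h and 78.8% lower at 144 h (limma adjusted p = 0.00573, 0.00618 and 0.000137). All values in the text are log2 array signals summarised by the authors, and a difference of 1 is a 2-fold change. Replicate arrays correlated at 0.992 to 0.994 across all rows. The 7 of 10 markers of luminal prostate cells that were measured (EPCAM, FOLH1, HOXB13, KLK2, KLK3, KRT8 and KRT18) lay between percentiles 62.1 and 99.6 of the mean signal. Between CTCF and control siRNA 1 of them was called, FOLH1 at 144 h (-0.61 ± 0.11, adjusted p = 0.0138), beside 3.76% of all probe sets. Against untransfected cells FOLH1 was lower with CTCF siRNA at 24 h (-0.47 ± 0.11, 0.0268) and 144 h (-0.68 ± 0.11, 0.00319), and KLK2 was higher at 144 h (0.71 ± 0.17, 0.019). Of all probe sets, 9.25% were called in that comparison at 24 h and 11.1% at 144 h. The 6 of 12 measured markers of immune, stromal, endothelial and basal cells lay between 2.1 and 30.9, with no call in any comparison.

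The 9 members spanned most of the range of the array. SLC38A12 had the highest mean value, 7.07, at percentile 83.4 of all named probe sets. SLC25A25-AS1 (5.58), SLC25A15 (5.38) and SLC25A21-AS1 (4.90) lay at percentiles 62.4, 59.3 and 52.4. SLC25A2 (4.45) and SLC25A5-AS1 (4.30) were just below the middle and SLC7A11-AS1 (3.46) was at percentile 29.1. SLC25A48-AS1 (2.12) and SLC25A51P4 (2.14) were at percentiles 8.93 and 9.24, and the distance of such values from background is not known. Probe sets differ in how brightly they bind, so these places are a description and not an order of RNA amounts.

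The members also differed in how far they moved over the 14 arrays. SLC25A15 and SLC25A25-AS1 covered 1.15 and 1.14 log2 units, whereas SLC25A51P4 covered 0.29. For SLC25A25-AS1 the standard deviation over all arrays was 0.39 and that within groups was 0.14. For SLC25A2 the within-group value of 0.28 was above the overall value of 0.23, so that its 2 arrays of a group differed as much as arrays of different groups did.

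**Figure D1:**
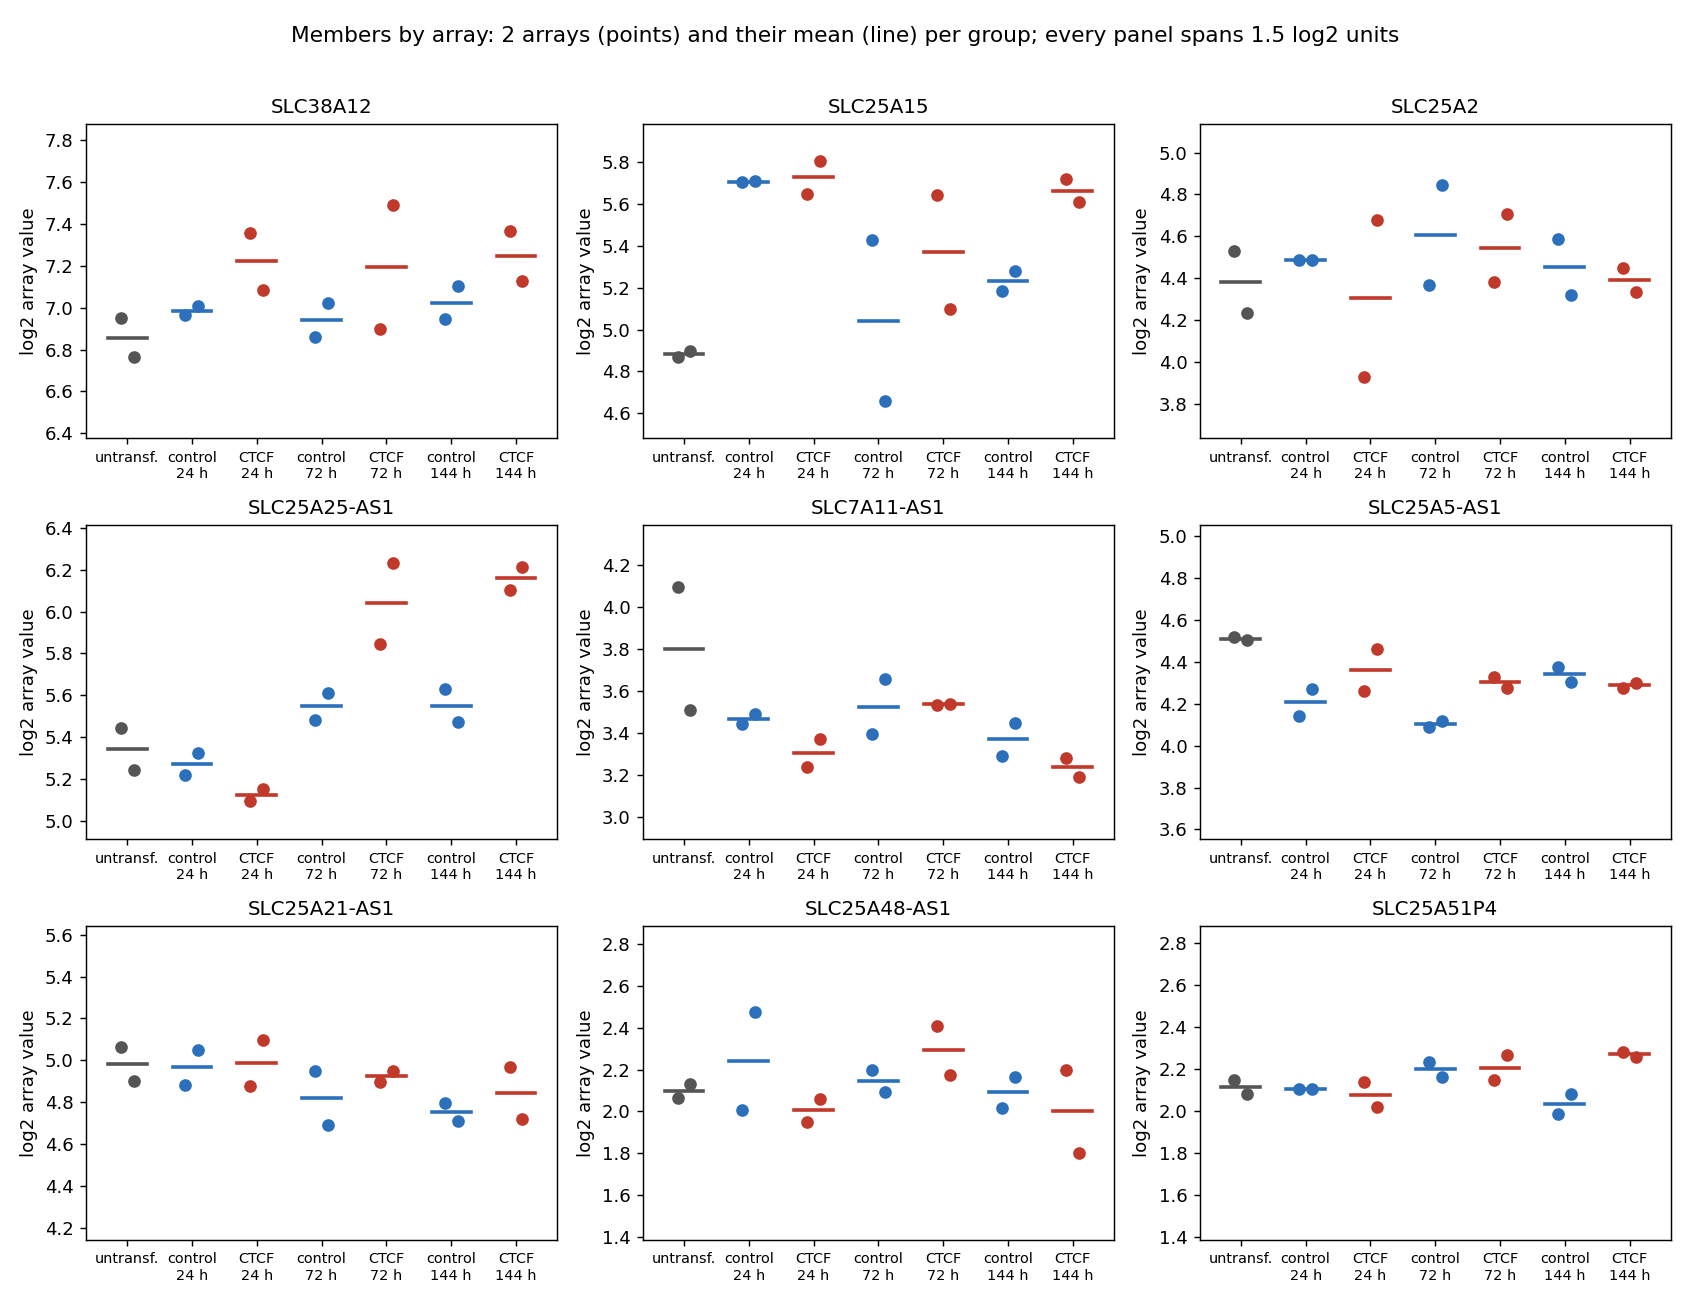
Log2 array value (y axis, each panel spanning the same number of log2 units) of the 9 members on each array, by group (x axis). Points are arrays, lines are means of 2 arrays, grey is untransfected, blue control siRNA and red CTCF siRNA. SLC25A25-AS1 stands at 5.84 to 6.23 in the CTCF groups at 72 and 144 h and at or below 5.63 in all others, while the replicates of SLC25A15 are far apart in both 72 h groups.

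SLC25A25-AS1 was the only member called between CTCF and control siRNA, at 144 h alone, and the call was a narrow one, as set out below. It is the antisense neighbour of SLC25A25, a calcium-regulated carrier of ATP-Mg and phosphate, and RefSeq lists no gene that overlaps it. At 144 h its values were 6.10 and 6.21 with CTCF siRNA and 5.63 and 5.47 with control siRNA. At 72 h they were 5.84 and 6.23 against 5.48 and 5.61. At 24 h the order was the opposite, with 5.10 and 5.15 in CTCF siRNA cells and 5.22 and 5.32 in control siRNA cells. The CTCF and control arrays thus did not overlap at any time, with the CTCF arrays lower at 24 h and higher at 72 and 144 h. Untransfected cells gave 5.44 and 5.24.

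At 144 h SLC25A25-AS1 was 0.61 ± 0.13 log2 units higher with CTCF siRNA than with control siRNA (SE, n = 2 arrays per group, 1.52-fold, 95% interval 0.31 to 0.90), and it passed the test (limma, adjusted p = 0.0332). It was the only 1 of the 9 members to do so, beside 3.76% of all 16098 probe sets called in either direction. At 72 h the difference was 0.49 ± 0.13 (1.41-fold, adjusted p = 0.3) and no member was called, beside 0.186% of all probe sets. At 24 h it was -0.15 ± 0.13 (adjusted p = 0.97), again with no member called and 0.0124% of all probe sets called. Tested directly, the CTCF effect at 144 h exceeded that at 24 h by 0.76 ± 0.19, which did not pass (limma adjusted p = 0.134), and no member was called in that comparison, beside 0.795% of all probe sets.

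The call at 144 h was a narrow one. It was lost when the adjustment ran over all rows of the table, named or not (adjusted p = 0.0977). It was also lost when any 1 of 10 of the 12 arrays was left out, although the difference stayed between 0.45 and 0.77. Without either array of the control siRNA at 144 h the adjusted p was 0.0516 or 0.23, and without either array of the CTCF siRNA at 144 h it was 0.169 or 0.158. Without an array of the 24 h or control 72 h groups, which enter through the shared spread alone, SLC25A25-AS1 kept its difference of 0.61 with adjusted p between 0.051 and 0.0565, and without a CTCF siRNA array at 72 h it passed (0.0253).

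The nearest genes named on either side of SLC25A25-AS1 in the RefSeq order are NAIF1, which encodes an inducer of apoptosis in the nucleus, and PTGES2, which encodes a prostaglandin E synthase. At 144 h NAIF1 differed by -0.33 ± 0.14 between CTCF and control siRNA (limma adjusted p = 0.267) and PTGES2 by 0.34 ± 0.16 (adjusted p = 0.319). Neither passed in any of the 12 comparisons. SLC25A25 was not analysed here, since no probe set carries its name.

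The other 8 members passed in no comparison of CTCF with control siRNA. SLC38A12, also known as TMEM104, is a multi-pass membrane protein placed by its symbol with the carriers of neutral amino acids. It was 0.24 ± 0.19, 0.25 ± 0.19 and 0.22 ± 0.19 higher at 24, 72 and 144 h (limma adjusted p = 0.96, 0.807 and 0.623). Its arrays read 7.36 and 7.08 against 6.96 and 7.01 at 24 h, 6.90 and 7.49 against 6.86 and 7.02 at 72 h, and 7.37 and 7.13 against 6.94 and 7.10 at 144 h. The CTCF arrays lay above the control arrays at 24 and 144 h and overlapped them at 72 h, and the 95% interval at 144 h ran from -0.19 to 0.64.

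SLC25A15 encodes ORNT1, the mitochondrial ornithine carrier of the urea cycle. At 144 h both CTCF arrays (5.72 and 5.61) lay above both control arrays (5.19 and 5.28), by 0.43 ± 0.21 (limma adjusted p = 0.35, 95% interval -0.04 to 0.90). At 72 h its replicates were far apart, at 5.43 and 4.66 with control siRNA and 5.64 and 5.10 with CTCF siRNA, and the difference was 0.33 ± 0.21 (adjusted p = 0.774). In both 72 h groups the second replicate was the lower, by more than the difference between the groups. At 24 h the difference was 0.02 ± 0.21. Its neighbour ELF1, which encodes an ETS transcription factor, differed by 0.47 ± 0.13 at 144 h (adjusted p = 0.0825), and the other neighbour MRPS31, which encodes a mitochondrial ribosomal protein, by -0.03 ± 0.13.

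SLC25A2 encodes ORNT2, a closely related ornithine carrier. It differed by -0.18 ± 0.22, -0.06 ± 0.22 and -0.06 ± 0.22 at 24, 72 and 144 h, with overlapping arrays each time, and its lowest value of all, 3.93, came from the first CTCF siRNA array at 24 h while the second read 4.68. Whether the probe sets of SLC25A2 and SLC25A15 tell the transcripts of these similar genes apart is not known from the files.

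Of the other antisense RNAs, SLC7A11-AS1 lies opposite SLC7A11, the exchanger that takes up cystine for glutamate. Its CTCF siRNA arrays lay below the control arrays at 24 h (3.24 and 3.37 against 3.44 and 3.49) and at 144 h (3.28 and 3.19 against 3.29 and 3.45), by -0.16 ± 0.12 and -0.13 ± 0.12 (limma adjusted p = 0.945 and 0.643). At 72 h the arrays overlapped, with a difference of 0.01 ± 0.12. SLC25A5-AS1, opposite the gene of an ADP/ATP carrier, lay above control at 72 h (4.33 and 4.27 against 4.09 and 4.12) and below it at 144 h (4.28 and 4.30 against 4.38 and 4.31), by 0.20 ± 0.11 and -0.05 ± 0.11, neither of which passed. SLC25A21-AS1 and SLC25A48-AS1, named after genes of a dicarboxylate carrier and of a choline carrier of mitochondria, overlapped between CTCF and control siRNA at every time, with differences between -0.23 and 0.15. The pseudogene SLC25A51P4 read 2.28 and 2.26 with CTCF siRNA and 1.99 and 2.08 with control siRNA at 144 h, a difference of 0.24 ± 0.11 (adjusted p = 0.314).

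Over the 9 members together, 8 had a positive difference at 72 h, 5 at 144 h and 4 at 24 h. The median difference of the members was 0.15 at 72 h, 0.09 at 144 h and -0.03 at 24 h, and the median of all probe sets was -0.01, 0.00 and 0.01. Their arrays did not overlap for 3 members at 24 h, 2 at 72 h and 6 at 144 h, where 35.7%, 35.1% and 47% of all probe sets did not overlap.

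**Figure D2:**
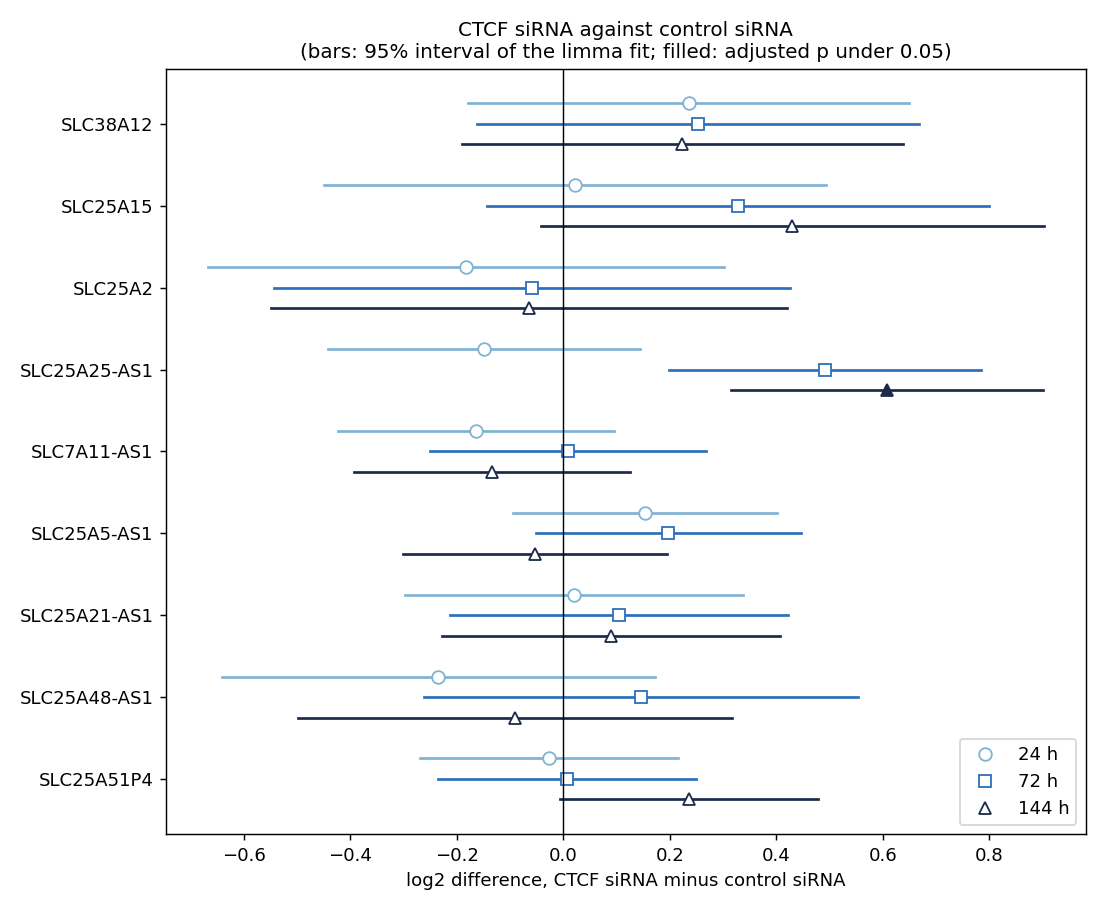
Log2 difference of CTCF siRNA minus control siRNA (x axis) for the 9 members (y axis) at 24 h (circles), 72 h (squares) and 144 h (triangles), with 95% intervals of the limma fit over 12 arrays. A filled symbol has an adjusted p under 0.05. SLC25A25-AS1 at 144 h (0.61) is the only filled symbol, and the intervals of all other members include 0 at all 3 times.

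The control siRNA arrays were also compared with each other over time. No member was called between 24 and 72 h, beside 0.087% of all probe sets. SLC25A15 was the nearest, with 5.70 and 5.71 at 24 h and 5.43 and 4.66 at 72 h, a difference of -0.66 ± 0.21 (limma adjusted p = 0.249). Between 72 and 144 h no member and no probe set at all was called by limma (0%), while 1000 of 16098 probe sets had an unadjusted p under 0.05, none of them a member. SLC25A25-AS1 with control siRNA read 5.22 and 5.32 at 24 h, 5.48 and 5.61 at 72 h, and 5.63 and 5.47 at 144 h.

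Against untransfected cells, 2 members rose and none was called lower. All of these comparisons share the same 2 untransfected arrays, so the results at different times are not independent of each other. Fewer cells of a kind and less RNA per cell cannot be told apart in such bulk samples.

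SLC25A15 was higher in siRNA-treated than in untransfected cells, with or without the CTCF siRNA. Untransfected cells gave 4.87 and 4.90. At 24 h the control siRNA arrays read 5.70 and 5.71 and the CTCF siRNA arrays 5.65 and 5.81. At 144 h the control siRNA arrays read 5.19 and 5.28 and the CTCF siRNA arrays 5.72 and 5.61. The arrays thus lay above the untransfected ones in all of these groups, and at 72 h the second control siRNA array, at 4.66, lay below them. Of all probe sets, 49.5% with control siRNA and 51.6% with CTCF siRNA did not overlap untransfected cells at 24 h. At 144 h these shares were 45.1% and 51.1%, so such a separation was common.

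With control siRNA at 24 h, SLC25A15 was 0.82 ± 0.21 higher than in untransfected cells (1.77-fold, limma adjusted p = 0.0344), and it was the only 1 of the 9 members called, beside 7.57% of all probe sets. With CTCF siRNA at 24 h it was 0.84 ± 0.21 higher (1.79-fold, adjusted p = 0.0274), again as the only member called, beside 9.25% of all probe sets. With CTCF siRNA at 144 h it was 0.78 ± 0.21 higher (1.72-fold, adjusted p = 0.0325), and with control siRNA at 144 h 0.35 ± 0.21 (adjusted p = 0.446). At 72 h the differences were 0.16 ± 0.21 with control siRNA and 0.49 ± 0.21 with CTCF siRNA (adjusted p = 0.846 and 0.252).

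All 3 calls of SLC25A15 were lost when either untransfected array was left out. Without the first untransfected array the adjusted p was 0.183 for control siRNA at 24 h, 0.159 for CTCF siRNA at 24 h and 0.178 for CTCF siRNA at 144 h, and without the second it was 0.0897, 0.0734 and 0.0807. They were also lost without either array of the siRNA group concerned. That gave 0.103 or 0.215 for control siRNA at 24 h, 0.0523 or 0.206 for CTCF siRNA at 24 h and 0.126 or 0.149 for CTCF siRNA at 144 h. With the adjustment over all rows of the table the SLC25A15 values were 0.106, 0.0882 and 0.093.

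SLC25A25-AS1 rose against untransfected cells with CTCF siRNA at 72 and 144 h. At 72 h it was 0.69 ± 0.14 higher (1.62-fold, limma adjusted p = 0.0239), the only member called, beside 3.22% of all probe sets. At 144 h it was 0.81 ± 0.14 higher (1.76-fold, adjusted p = 0.00377), called together with SLC25A15 as 2 of 9 members, beside 11.1% of all probe sets. With control siRNA it was 0.20 ± 0.14 higher at 72 h and 0.21 ± 0.14 higher at 144 h (adjusted p = 0.657 and 0.526). No member was called with control siRNA at either time, beside 0.478% of all probe sets at 72 h and 4.14% at 144 h. At 24 h the differences were -0.07 ± 0.14 with control siRNA and -0.22 ± 0.14 with CTCF siRNA.

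The SLC25A25-AS1 call at 144 h against untransfected cells held without any 1 of the 14 arrays, with differences of 0.66 to 0.97 and adjusted p up to 0.0418, and over all rows of the table (adjusted p = 0.0172). The SLC25A25-AS1 call at 72 h was lost without the first or second untransfected array (adjusted p = 0.0504 and 0.161) and without the second CTCF siRNA array at 72 h (0.194). It was also lost over all rows of the table (0.09) and in a fit of the 72 h and untransfected arrays alone (0.102).

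**Figure D3:**
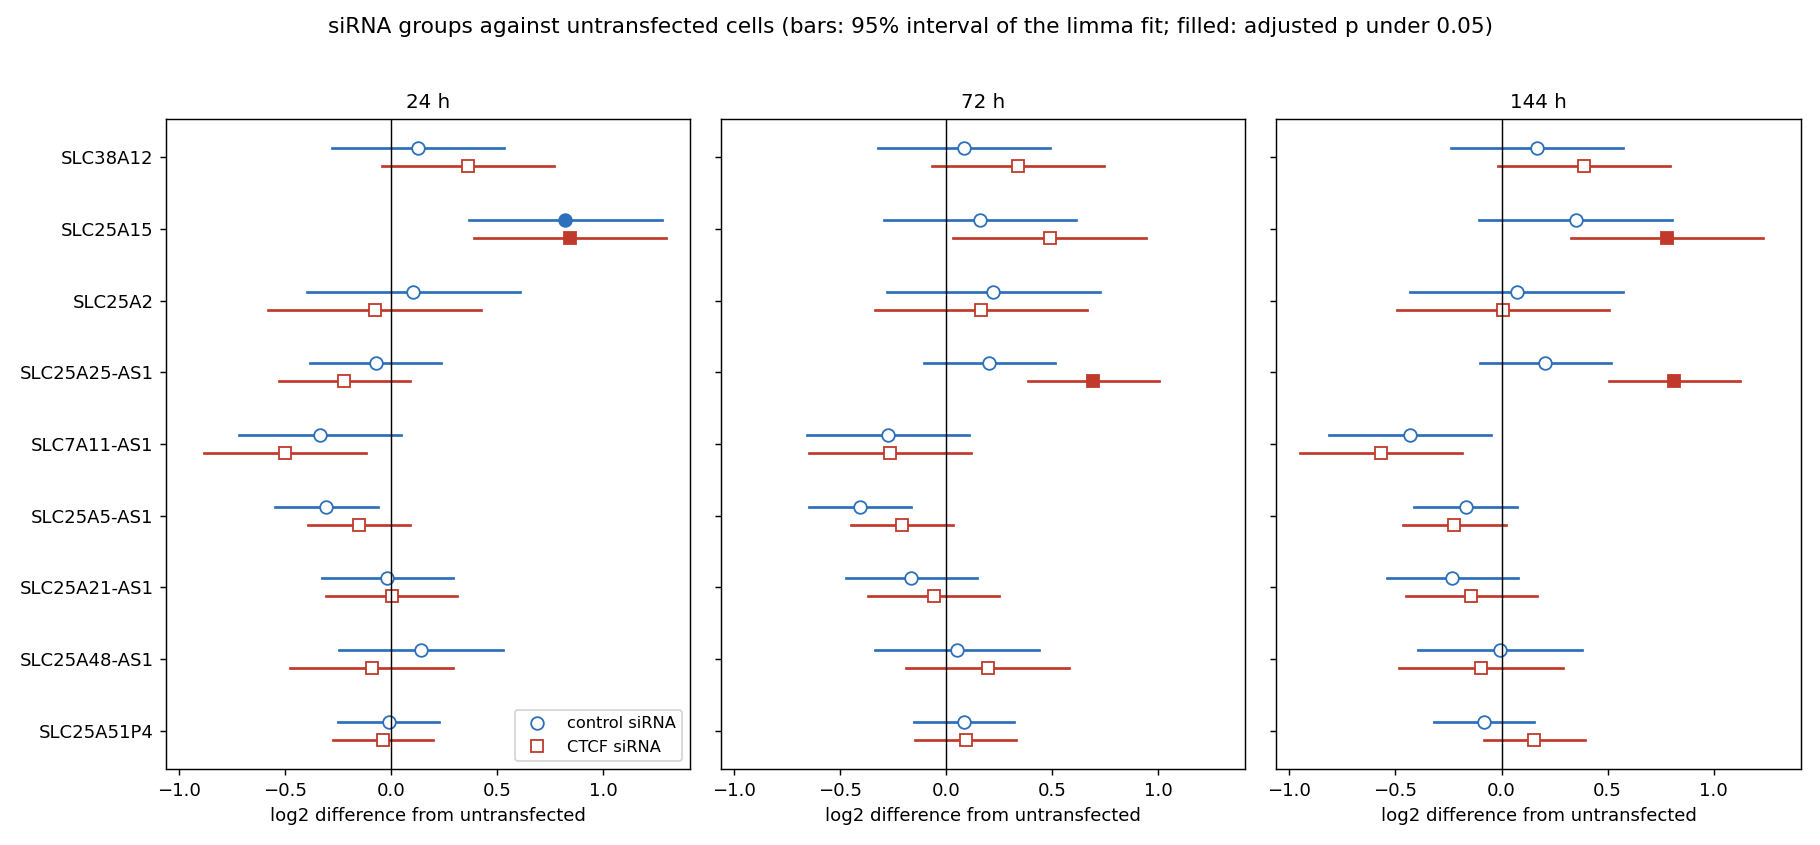
Log2 difference from untransfected cells (x axis) of the 9 members (y axis) for control siRNA (blue circles) and CTCF siRNA (red squares) at each time, with 95% intervals of the limma fit over 14 arrays. A filled symbol has an adjusted p under 0.05. SLC25A15 is filled at 24 h with both siRNAs (0.82 and 0.84) and at 144 h with CTCF siRNA (0.78), and SLC25A25-AS1 is filled with CTCF siRNA at 72 and 144 h (0.69 and 0.81).

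SLC7A11-AS1 had its highest value in untransfected cells, where the 2 arrays read 4.10 and 3.51, farther apart than any other pair of this member. With CTCF siRNA at 144 h it was -0.57 ± 0.17 from untransfected cells (limma adjusted p = 0.0597), and with control siRNA at 144 h -0.43 ± 0.17 (adjusted p = 0.23). Without the second untransfected array the SLC7A11-AS1 difference with CTCF siRNA at 144 h was -0.90 and passed (adjusted p = 0.00707), and without the first it was -0.23 (adjusted p = 0.42). With the replicate block left out of the fit it also passed (adjusted p = 0.0465).

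SLC25A5-AS1 read 4.52 and 4.50 in untransfected cells and at most 4.46 on all 12 siRNA arrays, so that every siRNA group lay below. Of all probe sets, 39.1% (control siRNA at 72 h) to 51.6% (CTCF siRNA at 24 h) did not overlap the untransfected arrays, which all of these comparisons share. The SLC25A5-AS1 difference was -0.41 ± 0.11 with control siRNA at 72 h (limma adjusted p = 0.151) and between -0.31 and -0.15 in the other 5 groups, and it passed in none. SLC38A12 was 0.36 ± 0.19, 0.34 ± 0.19 and 0.39 ± 0.19 higher with CTCF siRNA at 24, 72 and 144 h (adjusted p = 0.269, 0.391 and 0.225) and 0.13 ± 0.19, 0.08 ± 0.19 and 0.17 ± 0.19 with control siRNA. SLC25A2, SLC25A21-AS1, SLC25A48-AS1 and SLC25A51P4 differed from untransfected cells by -0.23 to 0.22 over all groups, with no call.

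SLC7A11-AS1, SLC25A5-AS1, SLC25A21-AS1 and SLC25A48-AS1 overlap the genes they are named after in RefSeq, SLC7A11-AS1 also overlaps the non-coding gene LINC00616, and SLC25A15 overlaps the microRNA gene MIR621 and the pseudogene TPTE2P5. Which strand each probe set reads is not given in the sources used here, so the share of signal from an overlapping RNA was not tested. The sense genes of these RNAs are not named by the annotation and were not analysed here.

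The wider amino acid pathways were counted in the same comparisons. Of all probe sets, 7.57%, 0.478% and 4.14% were called in either direction against untransfected cells with control siRNA at 24, 72 and 144 h and 9.25%, 3.22% and 11.1% with CTCF siRNA, each a larger share than between the siRNAs at the same time. The lists were drawn up with earlier results of these data known, so their counts are a description only. Of 29 genes of the ATF4 pathway, which senses amino acid shortage and induces amino acid synthesis, 20 were measured. With control siRNA 12 of them were called lower and 1 higher at 24 h, none at 72 h, and 6 lower at 144 h. With CTCF siRNA 10 were lower and 2 higher at 24 h, 4 lower and 1 higher at 72 h, and 11 lower and 1 higher at 144 h. The median difference of the list ran from -0.66 to -0.30 over these 6 comparisons, and that of all probe sets was within 0.01 of 0. Over time with control siRNA, from 24 to 72 h, 16 of the 20 differences were positive, with a median of 0.35 (-0.01 over all probe sets), and the 1 gene called went the other way, ATF3 (-1.50 ± 0.20, limma adjusted p = 0.0434).

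The largest falls of the list at 24 h with control siRNA were those of TRIB3, a pseudokinase induced by ATF4 (-1.28 ± 0.30, limma adjusted p = 0.0267), CTH, which makes cysteine (-1.26 ± 0.21, 0.00485), and PCK2, the mitochondrial phosphoenolpyruvate carboxykinase (-1.23 ± 0.17, 0.00173). At 144 h with CTCF siRNA they were those of DDIT3, which encodes CHOP (-2.47 ± 0.38, 0.002), ATF3, a related transcription factor (-1.37 ± 0.20, 0.00143), and TRIB3 (-1.36 ± 0.30, 0.0148). EIF2AK4, which encodes the amino acid sensing kinase GCN2, was the gene called higher at 24 h with control siRNA (0.46 ± 0.11, 0.0323), and with CTCF siRNA it was called higher at 24, 72 and 144 h (0.51, 0.48 and 0.72, each ± 0.11, adjusted p = 0.0182, 0.047 and 0.0022). The second gene higher at 24 h with CTCF siRNA was ATF3 (0.91 ± 0.20, 0.0169). EIF2AK4 was also the only 1 of the 20 measured genes called between CTCF and control siRNA, 0.46 ± 0.11 higher at 144 h (adjusted p = 0.0495). In that comparison 3.76% of all probe sets were called. Calls of genes outside the members, here and below, were not repeated without single arrays or over all rows of the table.

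Of 20 cytosolic aminoacyl-tRNA synthetases, which charge tRNAs with amino acids, 17 were measured. Called lower than in untransfected cells were 6, 0 and 5 with control siRNA at 24, 72 and 144 h and 6, 2 and 7 with CTCF siRNA, and none was higher, beside the shares of all probe sets just given. The median difference of the synthetases ran from -0.40 to -0.15 over these 6 comparisons. WARS1 was -1.41 ± 0.17 with control siRNA at 144 h (limma adjusted p = 0.00233) and -1.26 ± 0.17 with CTCF siRNA at 144 h (0.000983), and SARS1 was -0.88 ± 0.14 and -0.89 ± 0.14 (0.00786 and 0.00222). No synthetase was called between the CTCF and the control siRNA. Of 30 genes through which mTORC1 senses amino acids, 22 were measured and none was called between the siRNAs. Against untransfected cells 2 were called lower with control siRNA at 24 h, SESN3 and RRAGD (-0.59 ± 0.12 and -0.55 ± 0.13, adjusted p = 0.0112 and 0.0264). With CTCF siRNA at 24 h 2 were lower, RRAGC and SESN3, and 1 was higher, NPRL2 (0.47 ± 0.12, 0.0279). These counts are 2 and 3 of 22, beside 7.57% and 9.25% of all probe sets, and the median difference of the list was -0.02 and 0.05. From 24 to 72 h with control siRNA SESN3 was called higher (0.83 ± 0.12, 0.0456), the only 1 of the list, beside 0.087% of all probe sets. RRAGC, a Rag GTPase of that pathway, was -0.81 ± 0.21 with CTCF siRNA at 24 h and -0.78 ± 0.21 at 144 h against untransfected cells (adjusted p = 0.0323 and 0.0325). At 144 h RRAGC was the only 1 of the 22 genes called, beside 11.1% of all probe sets.

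Of 17 genes of glutamine, glutamate and ornithine metabolism, 9 were measured. ASS1, the urea cycle enzyme that joins citrulline and aspartate, was the only 1 called. Against untransfected cells ASS1 was -1.28 ± 0.21 with control siRNA at 24 h, -1.21 ± 0.21 with CTCF siRNA at 24 h and -0.86 ± 0.21 with control siRNA at 144 h (limma adjusted p = 0.0049, 0.00589 and 0.0463). It was 1.02 ± 0.22 higher with CTCF than with control siRNA at 144 h (0.031). In these comparisons, in the same order, 7.57%, 9.25%, 4.14% and 3.76% of all probe sets were called. OAT, the mitochondrial aminotransferase that uses ornithine, the substrate of the SLC25A15 carrier, differed by at most 0.16 in any comparison and was not called. A list of 7 further carriers held TMEM104, which is the member SLC38A12 under its other name. Of the rest, which lie outside the 9 families, SLC66A1, a lysosomal exporter of cationic amino acids, was the only 1 measured. SLC66A1 was not called (differences from -0.18 to 0.15).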

How the data were processed

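Biotin-labelled total RNA of LNCaP cells was read on Affymetrix Human Gene 2.0 ST arrays. Per the paper's methods the authors applied RMA in R 3.2.5, that is background correction, quantile normalisation and median polish of the probes of each probe set. The log2 values they deposited, 1 column per array and 53617 rows, were used as given, with medians per array of 3.67 to 3.72. The array's build is not given in the sources used here, so coordinates are those of RefSeq upstream windows only. Gene names come from the platform annotation, which names exactly 1 gene for 16098 probe sets. The other 37519 rows are unnamed here. RefSeq (GRCh38.p14) supplied gene kinds, neighbours and sequences. Each member has 1 probe set.

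Two-sided moderated tests were made with limma 3.58.1 in R 4.3.3, with Benjamini-Hochberg adjustment across the 16098 named probe sets and a threshold of 0.05. A fit of 12 arrays served for CTCF against control siRNA, and a fit of all 14 for either siRNA against untransfected cells. Both fits hold the replicate number as a fixed block, as in the study's methods. Errors are SE of the fit. Each group is a pair of arrays from separate experiments by the study's account, so a p-value rests on the spread within such pairs. Arrays have no read depth, and their number limits the precision.

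The rule for the members uses symbols alone, but it, the lists and the rule for naming genes were chosen with earlier results of these data known. None of the genes that the rule would always have named, and neither of the genes for a search of like patterns (SLC7A11 and SLC3A2), has a named probe set, so every member is described and no such search was made. Beside the members, the rule names CTCF and up to 4 called genes per list and comparison, and those shown are examples of them. EIF2AK4 against untransfected cells, OAT, SLC66A1 and the neighbouring genes were added after their values were seen. Deviations of same-numbered arrays correlated over 0.1 in 2 of 21 pairs of groups (median -0.01), so the numbers by themselves do not show pairing. The fit of CTCF against control siRNA was tried on simulated data in which 200 probe sets were changed by known amounts at each time. At 24, 72 and 144 h it called 28.4%, 26.9% and 22.4% of the 1.5-fold changes. Of the 2-fold changes it called 73.1%, 79.1% and 74.6%. These rates hold for 200 changed probe sets, whereas 2, 30 and 606 were called in the data at these times. A member that was not called may thus still have changed by 1.5-fold or 2-fold. The alternatives were another filter, row set, centring, variance model, weighting, choice of probe sets and of arrays, no block, and leaving out each array.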

Additional observations from a re-analysis of the deposited data

Results flagged for a closer look

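The CTCF effect on SLC25A25-AS1 was 0.64 log2 units larger at 72 h than at 24 h, and was picked out because both CTCF siRNA arrays lay below both control arrays at 24 h and above them at 72 h. This difference between times was not tested. The CTCF effect on SLC25A5-AS1 changed by -0.25 from 72 to 144 h, where the arrays moved from above to below control, and this difference was not tested either. Arrays of the CTCF and control siRNA did not overlap for 35.7%, 35.1% and 47% of all probe sets at 24, 72 and 144 h. How many of all probe sets switched direction between times in this way was not counted. With 2 arrays per group, single arrays that stand apart from their group could not be looked for.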

How the results depend on the processing

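In the settings other than leaving out an array, the counts of members called mostly kept their value. With the adjustment over all rows of the table, the count was 0 for CTCF against control siRNA at 144 h. Against untransfected cells it was then 0 for either siRNA at 24 h, 0 for the CTCF siRNA at 72 h and 1 for the CTCF siRNA at 144 h. More tests enter that adjustment. Among probe sets with a mean of at least 5, the CTCF effect at 144 h minus 24 h had 1 member called in place of 0 (SLC25A25-AS1, limma adjusted p = 0.0449), with fewer probe sets tested. Members with a lower mean did not enter that setting. With the untransfected and 72 h arrays alone in the fit, CTCF siRNA at 72 h had 0, with fewer arrays.

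When each array was left out in turn, the lone array left in a group being assumed to vary like the others, the counts ranged from 0 to 1 for CTCF against control siRNA at 144 h. Against untransfected cells they ranged from 0 to 1 for control siRNA (24 and 144 h) and for the CTCF siRNA (24 and 72 h), and from 1 to 2 for the CTCF siRNA at 144 h. The 1 member called with control siRNA at 144 h was SLC7A11-AS1, without the second untransfected array (-0.77, adjusted p = 0.0308).

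The numbers 1 and 2 are shared by all groups but are not shown to pair the arrays. Without the replicate block the count was 3 in place of 2 for CTCF siRNA at 144 h against untransfected cells, and it changed in no other comparison.

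Of 792 values of single members under settings other than leaving out an array, 6 lost a call, 2 gained one and none changed sign. Of 1404 values without 1 array, 25 lost a call, 4 gained one, and 76 changed sign, all of them values that passed in neither setting. Over all probe sets, the number called moved by more than 1.5 times under at least 1 setting in 10 of the 12 comparisons, for example from 30 to between 4 and 64 for CTCF against control siRNA at 72 h and from 1218 to between 753 and 1762 for control siRNA at 24 h against untransfected cells. The cause was not tested. The distance of the signals from background was not measured, which limits SLC25A48-AS1 and SLC25A51P4 most.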

Other observations

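Among the 18 named genes next to the members in the RefSeq order, 3 passed in some comparison. They are named here after their values were seen. Beside them, 3.76% of all probe sets were called between CTCF and control siRNA at 144 h. With CTCF siRNA against untransfected cells, 9.25% of all probe sets were called at 24 h and 11.1% at 144 h. Whether neighbours were called more often than other probe sets was not tested. MIPOL1, next to SLC25A21-AS1, was 0.64 ± 0.14 higher with CTCF than with control siRNA at 144 h (limma adjusted p = 0.0356) and 0.77 ± 0.14 higher than in untransfected cells (0.00467), while SLC25A21-AS1 itself differed by 0.09 ± 0.14 and -0.14 ± 0.14. DIAPH1, next to SLC25A2, was 0.39 ± 0.11 and 0.40 ± 0.11 higher than in untransfected cells with CTCF siRNA at 24 and 144 h (adjusted p = 0.0462 and 0.0376). SAA3P, next to SLC25A51P4, was -0.61 ± 0.17 from untransfected cells with CTCF siRNA at 24 h (adjusted p = 0.0446).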
